A study of Mus musculus with 8 samples.

Results

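The fatty acid elongases and desaturases of the liver were examined in mice fed a diet low in amino acids. Of 11784 genes in the deposited table, 9 were described here: the elongases Elovl1, Elovl2, Elovl3 and Elovl5, the desaturases Fads1 and Fads2, and Hsd17b12, Hacd3 and Tecr, which complete each round of elongation. They were chosen by gene symbol. 8 of them were listed under these symbols, and Hacd3 was listed under its older symbol Ptplad1, matched through a RefSeq gene table. All 9 were well above the low end of the table, and none was removed by a filter.

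Livers came from 8 males of the C57BL/6J strain, 4 on Control (TD.140711) and 4 on Low AA (TD.140712) food. Both diets supplied amino acids in place of protein, and on Low AA these gave a smaller share of the calories and carbohydrate a larger one. The diets began at 9 weeks of age and lasted 4 months, and tissue was taken after a fast of about 16 hours, which all 8 mice shared. Each mouse gave 1 library of polyadenylated RNA, and mice, not repeat libraries, were the replicates. Each value was taken as a read count that the authors had scaled per mouse and rounded, and is called a scaled read count below. The values summed to between 27876664 and 30799385 per mouse. Because the whole liver was sequenced, a lower share of one cell type and less RNA in each of its cells cannot be told apart.

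A fatty acid is lengthened in the endoplasmic reticulum by a cycle of steps that joins it to malonyl-CoA. An ELOVL enzyme carries out the condensation and sets which chains are accepted, and a ketoacyl reductase, a dehydratase and an enoyl reductase then finish the cycle. The FADS desaturases insert double bonds near the carboxyl end, and working in turn with the elongases they convert the essential fatty acids of the diet into arachidonic acid, EPA and DHA. The liver is a main site of this pathway, whose genes are known targets of SREBP-1c and of PPARα.

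Elovl5 was the one enzyme of the 9 whose values were higher in all Low AA mice than in any Control mouse, so the sequence before its start is shown beside that of Elovl2, the elongase acting after it, whose values overlapped between the diets. RefSeq start sites on GRCm38.p6 were used, the assembly that mm10 in the submitters' processing notes also names. The stretch for Elovl5 lies at chr9:77917115-77917363 on the plus strand and that for Elovl2 at chr13:41220406-41220653 on the minus strand, and both end before the first exon in GENCODE. Capitals mark CCAAT, the E-box CACGTG and the GC box GGGCGG, on either strand.
Elovl5: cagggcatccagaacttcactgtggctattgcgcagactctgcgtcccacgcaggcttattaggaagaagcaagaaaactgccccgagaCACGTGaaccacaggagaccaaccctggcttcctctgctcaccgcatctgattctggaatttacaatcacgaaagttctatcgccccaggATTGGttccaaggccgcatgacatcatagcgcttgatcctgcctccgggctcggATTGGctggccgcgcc
Elovl2: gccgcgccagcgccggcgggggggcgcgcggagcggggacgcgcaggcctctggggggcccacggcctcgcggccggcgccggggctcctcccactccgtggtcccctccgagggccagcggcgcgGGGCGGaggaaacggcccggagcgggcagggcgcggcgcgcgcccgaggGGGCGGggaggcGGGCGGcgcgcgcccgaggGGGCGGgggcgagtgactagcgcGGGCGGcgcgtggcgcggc

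In the 250 bases before its start, Elovl5 held CCAAT at 2 places, beginning 71 and 17 bases before the start, and CACGTG once, 161 bases before it, and held no GGGCGG. The Elovl2 window held GGGCGG at 5 places and neither of the other motifs, and the window of a second RefSeq start of Elovl2 held none of them. Among enzymes whose values overlapped between the diets, Hacd3 held CCAAT and CACGTG once each, Hsd17b12 held CCAAT at 2 places and Tecr at 3. CCAAT was also in a window of Elovl1, and neither CCAAT nor CACGTG was particular to Elovl5. Of 32851 such windows in the mouse genome, 33.8% held CCAAT, 6.02% held CACGTG and 32.7% held GGGCGG. The sterol regulatory letters TCACNCCAC, present in 1.05% of windows, were in none of those found for 7 of the 9 genes. Exons in GENCODE reach into the windows of Fads2, Hsd17b12 and the second Elovl2 start, so these windows are not wholly sequence before a transcript. The Elovl5 window was 55.6% G or C and the Elovl2 window shown 87.2%, against a median of 52.4%. These letters describe the windows, and no binding was measured.

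Elovl5 elongates polyunsaturated chains early in the pathway. It spans chromosome 9 from 77917365 to 77984519. In Control mice its scaled read counts were 35264 in F129, 31205 in F2212, 23719 in F7111 and 36793 in F2110. In Low AA mice they were 49364 in H1126, 45317 in H828, 52009 in H817 and 42753 in H1315. The lowest Low AA mouse was thus above the highest Control mouse, and F7111 lay well below the other Control mice. The means were 47361 ± 4124 on Low AA and 31745 ± 5847 on Control (SD, n = 4 each), a fold of 1.51. On the log2 scale the difference was 0.59 with a standard error of 0.15 and a 95% interval of 0.27 to 0.92, and it did not pass the threshold over all genes (limma adjusted p = 0.133). Elovl5 stood at place 205 of 11784 when genes were ordered by p. Without F7111 the difference was 0.46 (limma adjusted p = 0.15).

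That result is read against how often genes moved at all. In limma 47 genes, 0.399% of those tested, passed an adjusted p under 0.05, and 0 of the 9 enzymes did. Before adjustment 1395 genes, 11.8%, had a p under 0.05, and Elovl5 was the 1 enzyme among them. The diets did not overlap in 802 genes, 6.81%, of which 384 were higher on Low AA, 3.26% of all genes, and 418 lower, 3.55%. Among the enzymes 1 of 9 did not overlap. The median log2 fold change was 0.11 over the 9 enzymes and 0.0023 over all genes, with 5 of 9 enzymes and 50.5% of all genes above 0. A share of 1 in 9 says little about the enzymes as a group.

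**Figure D1:**
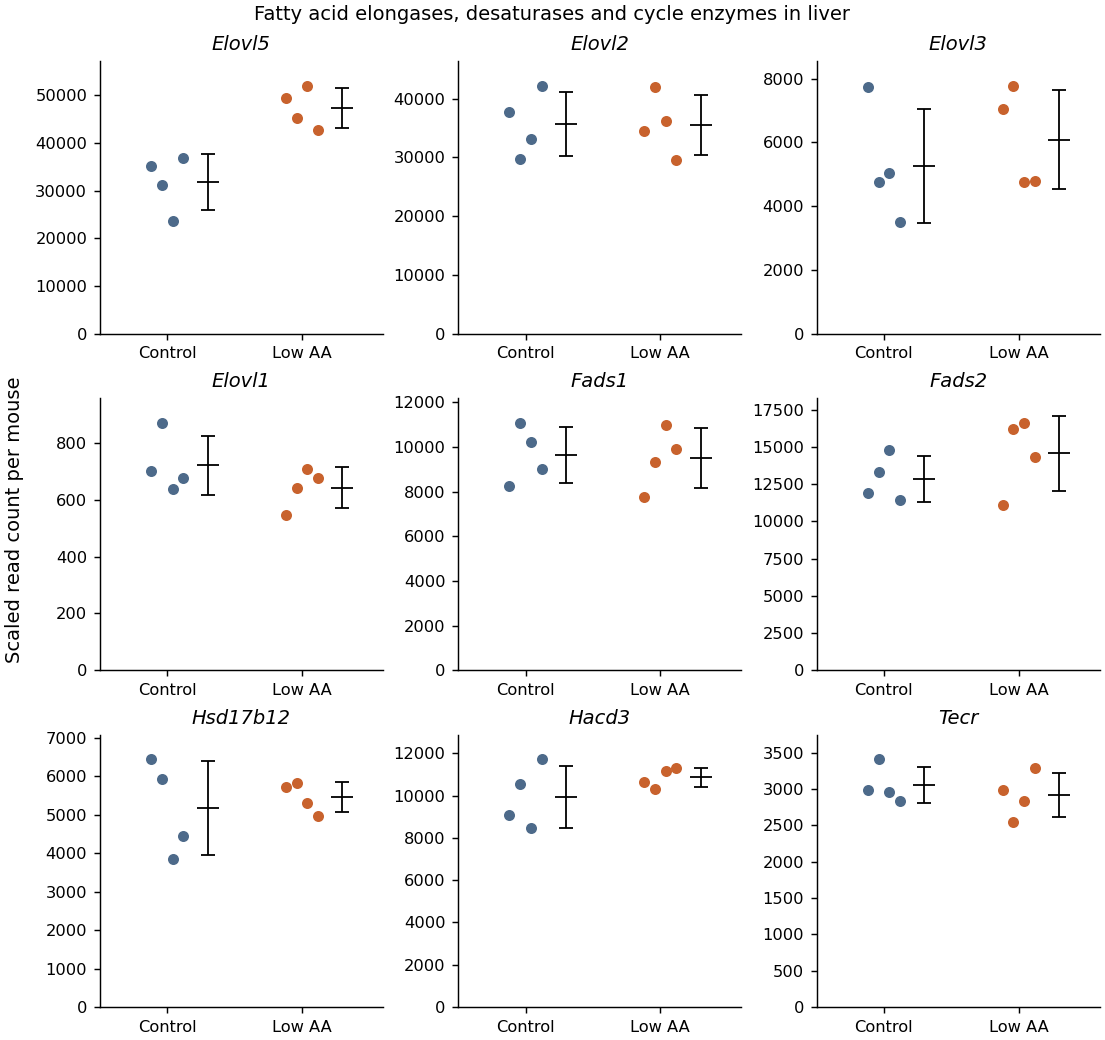
Scaled read count (vertical axes, each from 0) of the 9 enzymes in each Control mouse (blue) and Low AA mouse (orange), with the mean and SD of the 4 mice beside the points. Elovl5 ran from 23719 to 36793 on Control and from 42753 to 52009 on Low AA, and the values of the other 8 enzymes overlapped.

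Elovl2 lengthens the longer polyunsaturated chains on the way to DHA, and lies on chromosome 13 from 41182382 to 41220403. It had 37750, 29705, 33181 and 42160 scaled read counts in Control mice F129, F2212, F7111 and F2110. In Low AA mice H1126, H828, H817 and H1315 it had 34418, 41891, 36236 and 29497. Both diets covered nearly the same range. The means were 35511 ± 5118 on Low AA and 35699 ± 5423 on Control (SD, n = 4 each), a fold of 0.996 with a 95% interval of 0.797 to 1.24 (limma adjusted p = 0.992). The interval leaves room for a modest difference in either direction.

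Fads2 carries out the first desaturation of the essential fatty acids, the step taken as limiting for the pathway, and Fads1 the later one that yields arachidonic acid and EPA. Both lie on chromosome 19, Fads2 from 10062765 to 10101503 and Fads1 from 10182877 to 10196874. Fads2 had 11917, 13309, 14789 and 11409 scaled read counts in F129, F2212, F7111 and F2110, and 11096, 16229, 16644 and 14331 in H1126, H828, H817 and H1315. H1126 was the lowest of all 8 mice for Fads2 and for Fads1 alike, while H828 and H817 had the highest Fads2. The fold for Fads2 was 1.13 with a 95% interval of 0.901 to 1.41 (limma adjusted p = 0.722). Fads1 ran from 8232 to 11094 on Control and from 7750 to 10995 on Low AA, with means of 9641 ± 1276 and 9499 ± 1355 (SD, n = 4 each). Its fold was 0.984 with a 95% interval of 0.800 to 1.21 (limma adjusted p = 0.969).

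Elovl3 and Elovl1 act mainly on saturated and monounsaturated chains that become very long. Elovl3, on chromosome 19 from 46131897 to 46135694, had 7735, 4748, 5043 and 3492 scaled read counts in F129, F2212, F7111 and F2110. On Low AA it had 7032, 7770, 4745 and 4781 in H1126, H828, H817 and H1315. Within each diet it spread more than any of the other 8 enzymes, with an SD on the log2 scale of 0.47 on Control and 0.37 on Low AA, and its highest values came from 1 Control mouse and 2 Low AA mice. The fold of 1.18 had a 95% interval of 0.811 to 1.71 (limma adjusted p = 0.778). Elovl1, on chromosome 4 from 118426874 to 118432953, was at 638 to 873 on Control and at 546 to 709 on Low AA, a fold of 0.893 with a 95% interval of 0.734 to 1.09 (limma adjusted p = 0.699). Exons of Elovl1 and Elovl3 share 53 and 10 bases with genes on the other strand, Cdc20 and Pitx3, which were not among the genes listed.

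The enzymes that complete the cycle serve every elongase. Hsd17b12, the ketoacyl-CoA reductase, on chromosome 2 from 94032697 to 94157909, had 6445, 5942, 3853 and 4446 scaled read counts in F129, F2212, F7111 and F2110. Its Low AA values, from 4967 to 5841, lay inside that Control range, and the fold was 1.08 with a 95% interval of 0.844 to 1.38 (limma adjusted p = 0.853). Hacd3, a hydroxyacyl-CoA dehydratase on chromosome 9 from 64986983 to 65021732, likewise had its 4 Low AA values, 10312 to 11328, inside the Control range of 8470 to 11723. Its fold was 1.10 with a 95% interval of 0.920 to 1.31 (limma adjusted p = 0.723). Tecr, the enoyl-CoA reductase, on chromosome 8 from 83571698 to 83594491, ran from 2839 to 3409 on Control and from 2549 to 3286 on Low AA. It had the narrowest interval of the 9, a fold of 0.954 with 0.811 to 1.12 (limma adjusted p = 0.863).

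**Figure D2:**
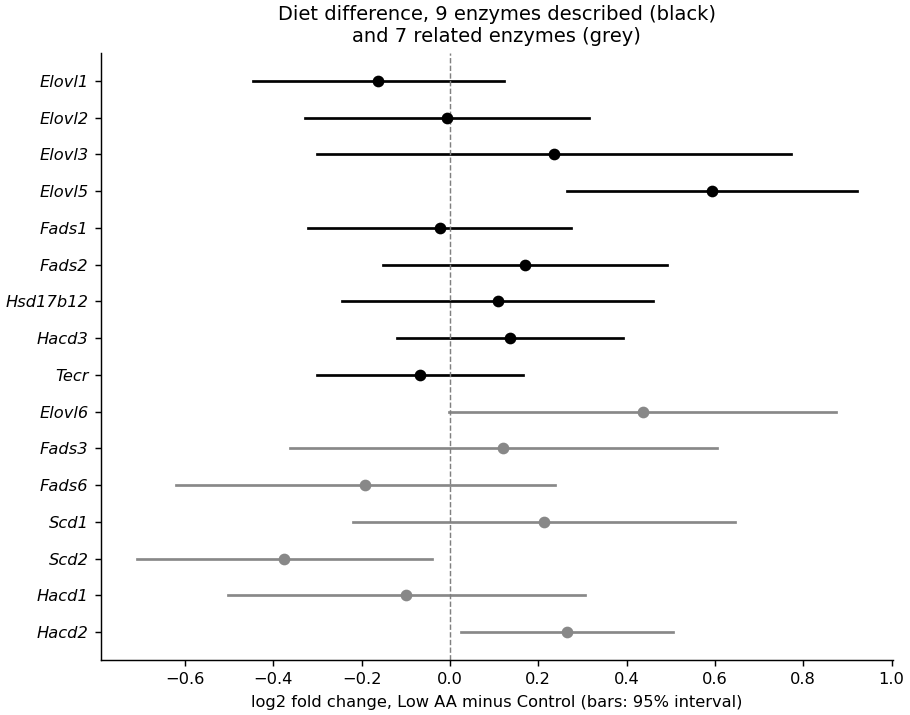
Log2 fold change, Low AA minus Control (horizontal axis), with its 95% interval from limma for the 9 enzymes described (black) and 7 related enzymes (grey). The interval of Elovl5, centred on 0.59, lies above 0, those of the other 8 enzymes described include 0, those of Hacd2 and Scd2 among the related enzymes do not, and none of the 16 genes passed the threshold over all genes.

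Levels of different genes were compared per kb of their longest protein-coding transcript in GENCODE. Over the 8 mice Elovl5 had the highest mean level, 14218 scaled read counts per kb, and Elovl2 followed with 9272, although their ranges overlapped, at 8526 to 18695 and 7682 to 10979. Fads2 came next with 4354, and its highest mouse, at 5284, lay below the lowest for Elovl2. Fads2 began a run in which each neighbour overlapped the next. The run went on with Hacd3 at 3843, Elovl3 at 3013, Hsd17b12 at 2796, Fads1 at 2766 and Tecr at 2345. Elovl1 was apart from the rest at 377, with 301 to 482. The polyunsaturated elongases thus had the highest levels per length and Elovl1 the lowest, and the order of the 9 was the same per kb of all exons joined. On this per-length scale Elovl5 was at 11411 ± 2102 on Control and 17024 ± 1482 on Low AA, and Elovl2 at 9297 ± 1412 and 9248 ± 1333 (SD, n = 4 each).

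Ratios within a mouse do not depend on how its library was scaled, and 3 were compared. The log2 ratio of Elovl5 to Elovl2 was -0.10, 0.07, -0.48 and -0.20 in F129, F2212, F7111 and F2110, and 0.52, 0.11, 0.52 and 0.54 in H1126, H828, H817 and H1315. The diets did not overlap, but H828 on Low AA and F2212 on Control lay close together. The difference in means was 0.60, Low AA minus Control (two-sided exact permutation p = 0.0286, no smaller value being possible with 4 mice per diet, and 0.0857 after Benjamini-Hochberg adjustment over the 3 ratios). Because the log2 fold change of Elovl2 was only -0.0064, this difference largely restates that of Elovl5, 0.59, and is not separate evidence. The log2 ratio of Fads2 to Fads1 was 0.61 ± 0.13 on Low AA and 0.42 ± 0.14 on Control (SD, n = 4 each), and the diets overlapped (exact permutation test, two-sided, p = 0.143, adjusted 0.214). That of Elovl3 to Elovl1 was 3.21 ± 0.50 and 2.81 ± 0.51 (SD, n = 4 each; exact permutation test, two-sided, p = 0.314, adjusted 0.314).

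**Figure D3:**
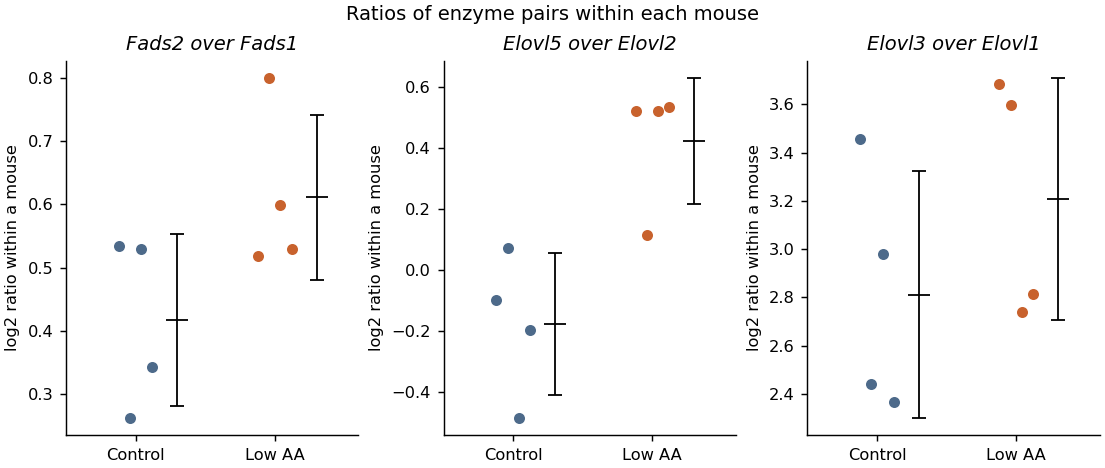
Log2 ratio of each enzyme pair within a mouse (vertical axes) for Control mice (blue) and Low AA mice (orange), with the mean and SD of 4 mice. Elovl5 over Elovl2 ran from -0.48 to 0.07 on Control and from 0.11 to 0.54 on Low AA, and the other pairs overlapped.

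The genes whose pattern over the 8 mice lay nearest to that of Elovl5 were St5, Naa20, Pcdh12, Fam110c and C030044B11Rik. Nearness was the mean absolute difference of log2 values centred on each gene's own mean, and it was 0.06 for St5, 0.08 for Naa20 and Pcdh12, 0.09 for Fam110c and 0.10 for C030044B11Rik. St5 had 1127, 1139, 908 and 1364 scaled read counts in F129, F2212, F7111 and F2110, and 1843, 1802, 2016 and 1616 in H1126, H828, H817 and H1315. Like Elovl5 it was lowest in F7111 and highest in H817. None of the 8 other enzymes was among these genes, and the nearest of them was Hacd3, with a difference of 0.24 and 1339 genes nearer. Being nearest in 8 mice says nothing of shared function or control.

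**Figure D4:**
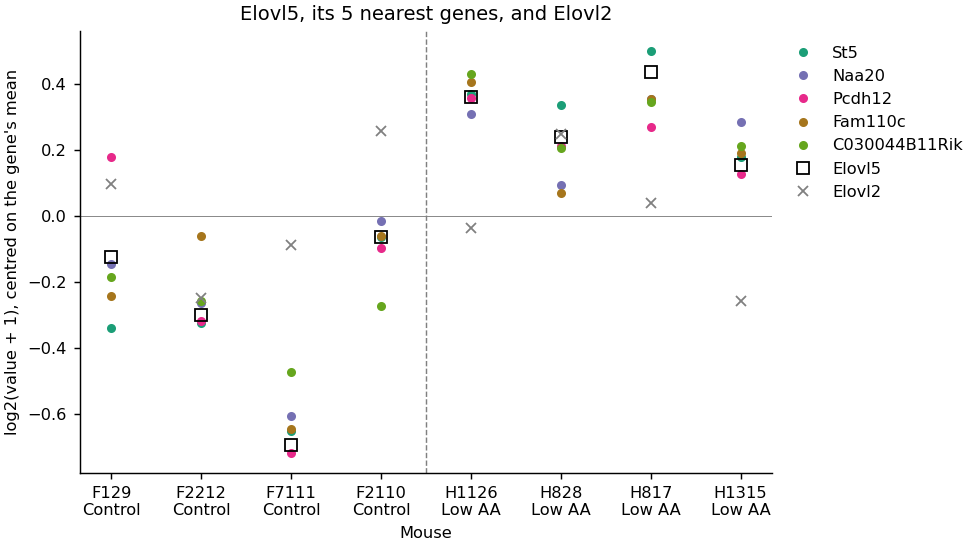
Log2(value + 1) centred on each gene's mean over the 8 mice (vertical axis) by mouse (horizontal axis) for Elovl5 (squares), its 5 nearest genes (filled points) and Elovl2 (crosses). Elovl5 and the 5 genes were each lowest in F7111, and Elovl2 did not share their pattern, with its lowest value in H1315.

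Genes that supply or use the products were described from 7 lists, of which 56 of 65 genes were in the table, 3 of them under older symbols. None of the 56 passed the threshold in limma, either higher or lower on Low AA, and 11, or 19.6%, had an unadjusted p under 0.05, beside 11.8% of all genes. The diets did not overlap in 5 of the 56, 4 of them higher and 1 lower, or 8.93%, beside 6.81% of all genes. The median log2 fold change was 0.07, with 35 of 56, or 62.5%, above 0, beside 50.5% of all genes.

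Among 7 further enzymes of elongation and desaturation, the diets did not overlap for Hacd2, a dehydratase of the same step as Hacd3, which had 1427 to 1884 scaled read counts on Low AA and 1209 to 1425 on Control (log2 fold change 0.26, limma adjusted p = 0.373). Elovl6, the elongase of palmitate, was at 1387 to 2895 on Low AA and 1409 to 1789 on Control (log2 fold change 0.44, limma adjusted p = 0.424). For Scd1, which makes oleate from stearate, the log2 fold change was 0.21 (limma adjusted p = 0.748). The absence of overlap for Hacd2 rested on 2 scaled read counts, 1427 in H1315 against 1425 in F129. Of 5 electron carriers that serve the desaturases and 5 genes of malonyl-CoA and NADPH supply, none was without overlap.

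Fatty acids must be activated to acyl-CoA before they are elongated, and Acsl5, 1 of 9 genes of activation and uptake, was at 13924 to 15342 on Low AA and 9384 to 13829 on Control (log2 fold change 0.37, limma adjusted p = 0.255). Abcd3, 1 of 11 genes of peroxisomal chain shortening, by which DHA is finished, carries acyl-CoA into peroxisomes. It was at 31450 to 37161 on Low AA and 24911 to 30140 on Control (log2 fold change 0.35, limma adjusted p = 0.197). Agpat3, 1 of 7 acyltransferases, was at 10770 to 11608 and 9199 to 10439 (log2 fold change 0.18, limma adjusted p = 0.473). In each of these lists the named gene was the only one without overlap.

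Of 12 regulators that respond to lipid, Insig1, which holds SREBP in the endoplasmic reticulum and is itself an SREBP target, was the only one without overlap, and the only gene of the 7 lists that was lower in this way. It had 1057 to 1644 scaled read counts on Low AA and 1719 to 2311 on Control (log2 fold change -0.57, limma adjusted p = 0.178). Srebf1, which encodes SREBP-1, was at 384 to 753 on Low AA and 408 to 852 on Control (log2 fold change -0.32, limma adjusted p = 0.733). Ppara, the receptor that senses fatty acids, was at 11598 to 16011 and 10553 to 13981 (log2 fold change 0.23, limma adjusted p = 0.538).

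**Figure D5:**
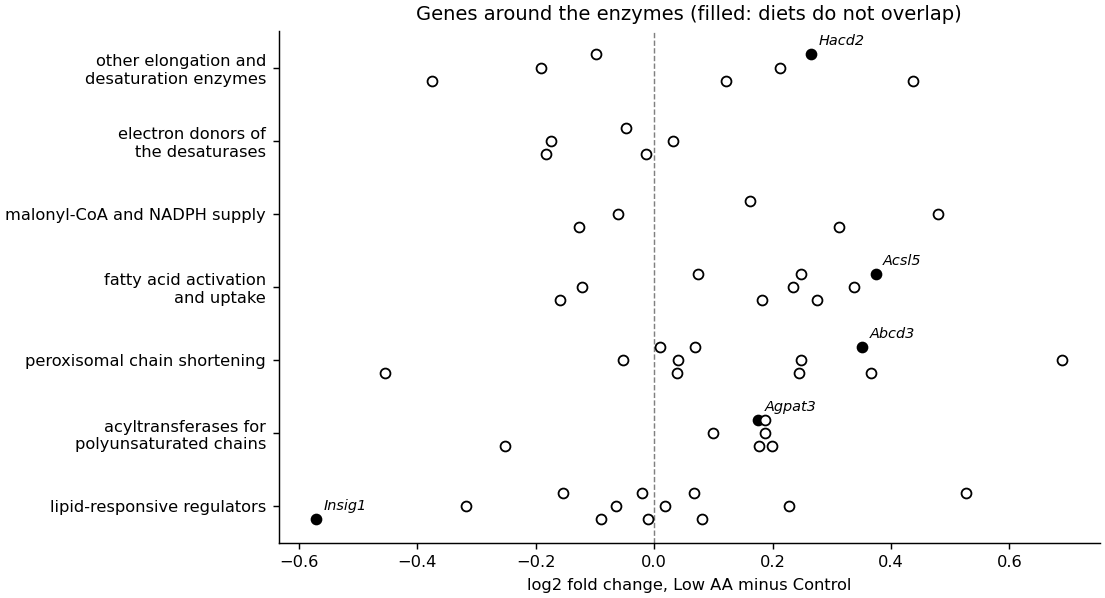
Log2 fold change, Low AA minus Control (horizontal axis), of the 56 genes of 7 lists (rows), each point 1 gene, filled where the values of the diets did not overlap. Of the 5 filled points, Insig1 lies at -0.57 and Hacd2, Acsl5, Abcd3 and Agpat3 lie between 0.18 and 0.37.

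As to the tissue, all 6 hepatocyte markers were present, with summed values of 1974447 to 2261992 on Control and 2178239 to 2402680 on Low AA. The 5 of 6 cholangiocyte markers listed summed, mostly through Spp1, to 1276 to 2449 on Control and 833 to 1324 on Low AA, which overlapped. All 5 had log2 fold changes below 0, with a median of -0.87, and 1 of them, Tff3, was called lower. The sums of the 8 macrophage, 8 stellate and 7 endothelial markers also overlapped between the diets, as did those of the 4 erythroid markers listed and the single adipose marker, and none of the 4 muscle markers was listed. Log2 fold changes were above 0 for all 8 macrophage markers, with a median of 0.23. They were below 0 for all 4 erythroid markers, with a median of -0.49, and none of these macrophage or erythroid markers was called. Within these lists Col1a1, a stellate marker, was at 37 to 69 on Low AA and 70 to 147 on Control (log2 fold change -1.07, limma adjusted p = 0.148). The 8 stellate markers went both ways, with log2 fold changes from -1.07 to 0.44 and a median of -0.02, so Col1a1 does not stand for the list. Alas2, an erythroid marker, was at 911 to 1332 on Low AA and 1362 to 2111 on Control (log2 fold change -0.49, limma adjusted p = 0.266). The 1 of 12 acinar pancreas markers listed, Cela1, was at 36587 in Control mouse F2212 and at 130 to 288 in the other 7 mice. Without F2212 the log2 fold change of Elovl5 was 0.59, as with it. The part of the cholangiocyte, macrophage, stellate and erythroid markers in these results was not tested.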

How the data were processed

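Liver RNA-Seq of 8 mice, 4 per diet, was used from 1 deposited table. The submitters' processing notes list STAR 2.5.0a, RSEM 1.2.6, edgeR 3.10.5 and mm10, without saying which step each served. The values deposited are a signal per gene and library, in whole numbers. Among low values some numbers were nearly missing at even spacing in some mice and doubled in others, and medians over genes were close, 433 to 449, so they were taken as read counts scaled and rounded per mouse by the authors. Depth is thus known only approximately. The low-expression filter was not stated, and every gene had at least 28 in 3 or more mice. The authors' deposited FDR, a q-value, and signed fold change, a score, were not used.

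Values were analysed as log2(value + 1), a scale that understates the change of low genes, with limma 3.58.1 in R 4.3.3, empirical Bayes moderation with a trend on mean level, and p-values adjusted by Benjamini-Hochberg across the 11784 genes with a threshold of 0.05. The fit was tested on simulated data. A minimum of 1 in at least 4 mice removed 0 genes. The log scale was used in place of a count model because the values were taken as scaled. Permutation tests used scipy 1.17.1. Promoters were RefSeq windows of 250 bases before each start, matched for 7 of 9 genes. The genes and lists were chosen with earlier results of these data known. Named genes were the 9 enzymes, Elovl6, Scd1, Srebf1 and Ppara, genes of the 7 pathway lists called or without overlap, and the 5 nearest to the enzyme with the smallest p. Alternatives were pseudocounts of 0.1 and 5, no filter, the 8000 genes with the highest mean, 2 rescalings, voom weights, no trend, robust moderation, a threshold of 0.1 and each mouse left out. Col1a1 and Alas2 were named after their values were seen. Some genes of the lists are not reported here by name.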

Additional observations from a re-analysis of the deposited data

Results flagged for a closer look

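The log2 ratio of Elovl5 to Elovl2 in Low AA mouse H828 stood apart from those of the other Low AA mice, at 0.113 against 0.520 in the nearest of them, a gap of 0.964 of the range of the 4. H828 had the highest Elovl2 of the Low AA mice, 41891, and an Elovl5 of 45317, within the range of the others. It was the 1 value that stood out among 24 groups of 4 examined, where chance gives about 1 in 20, and no cause was tested.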

How the results depend on the processing

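None of the 9 enzymes passed the threshold under any of the 18 alternatives run. The log2 fold change of Elovl5 kept its sign in all 18, from 0.46 to 0.67 with a mouse left out and from 0.59 to 0.60 otherwise, with limma adjusted p from 0.13 to 0.386. With a mouse left out, the log2 fold change of Elovl2 ran from -0.0906 without F2212 to 0.0791 without H1315, that of Fads1 from -0.0975 without H817 to 0.0707 without H1126 and that of Hsd17b12 from -0.0234 without F7111 to 0.224 without F129, so these 3 have no settled direction. The other 5 enzymes kept their sign but moved in size, Elovl1 from -0.22 to -0.07, Elovl3 from 0.06 to 0.44, Fads2 from 0.10 to 0.30, Hacd3 from 0.06 to 0.22 and Tecr from -0.13 to -0.0055. The count of all genes called, 47, was 19 among the 8000 genes with the highest mean, 30 without the trend and 132 at a threshold of 0.1. It ran from 16 to 77 with a mouse left out, and was 29 without F129, 77 without F2212, 21 without H1126, 19 without H828 and 16 without H817. The difference of the Elovl5 to Elovl2 ratio ran from 0.50 to 0.70 with a mouse left out, where an exact test of 3 mice against 4 cannot reach the threshold. No paired analysis was possible because no mouse code or replicate number links a Control mouse to a Low AA mouse.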

Other observations

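Elovl5, Hsd17b12 and Hacd3 were each lowest in Control mouse F7111 and varied less among Low AA than among Control mice. The SD on the log2 scale was 0.13 on Low AA and 0.29 on Control for Elovl5, 0.11 and 0.35 for Hsd17b12, and 0.06 and 0.21 for Hacd3. The SD was also smaller on Low AA for Elovl1, 0.16 and 0.20, Elovl2, 0.21 and 0.22, and Elovl3, 0.37 and 0.47. It was larger on Low AA for Fads1, 0.21 and 0.19, Fads2, 0.27 and 0.17, and Tecr, 0.15 and 0.11. A low value in a single Control mouse also widens the Control SD of a gene picked for it. How many of all genes have either trait was not counted, and the difference in spread was not tested.

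Further genes of the lists, named after their values were seen, had a limma unadjusted p under 0.05 with overlapping diets. Abcd2, a peroxisomal acyl-CoA carrier, had 1063 ± 242 scaled read counts on Low AA and 654 ± 126 on Control (SD, n = 4 each) (log2 fold change 0.69, limma adjusted p = 0.163). Scd2, a desaturase related to Scd1, was at 98 to 125 and 120 to 162 (log2 fold change -0.37, limma adjusted p = 0.36). For Insig2 the log2 fold change was 0.53 (limma adjusted p = 0.389), opposite in sign to Insig1, and it ran from 16039 to 26644 on Low AA and from 9523 to 18874 on Control. Acacb and Acsl1 also had such a p, with log2 fold changes of 0.48 and 0.34.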
